A study of Mus musculus with 72 samples.

Results

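Pancreatic islets of C57BL/6J mice were compared between a high-fat diet (HFD) and regular chow (RC) at day 33. The comparison held 7 of the 69 libraries with values, chosen by the strain, day and diet labels alone: 4 HFD libraries (replicates 1 to 4) and 3 RC libraries (replicates 1, 2 and 4). The study fed C57BL/6J mice, along with those of strains DBA/2J and BALB/cJ, either diet and sampled islets at days 5, 13 and 33. Every group was described as 8-week-old males, without saying whether that was the age at the start of feeding or at isolation, and the composition of the HFD was not given in the sources used here. Islets were freed with Liberase, picked by hand and kept in culture medium overnight, so the RNA of both diets came from islets that had spent a night outside the animal. Each library came from 120 to 150 islets of 1 mouse. The spread between libraries therefore holds that between mice together with that of islet handling and sequencing, which cannot be told apart.

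Islets are small endocrine organs in which beta cells, which release insulin, lie with glucagon-releasing alpha cells, somatostatin-releasing delta cells and PP cells, beside vessels, stromal cells and macrophages. In mice that become insulin resistant on a HFD, beta cells are known to secrete more insulin and, with time, to increase in mass. Protein synthesis under such a load is guarded by the unfolded protein response of the endoplasmic reticulum (ER) and by the integrated stress response, in which phosphorylation of the initiation factor eIF2alpha favours translation of the transcription factor ATF4, and ATF4 with its partners switches on genes for amino acid uptake and stress adaptation.

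The 7 libraries held 20349943 to 26719484 reads in the 14604 genes of the table. The insulin genes took 11.5%, 16.2%, 18.4% and 21.8% of these reads in HFD replicates 1 to 4, against 15.4%, 14.9% and 16.2% in RC replicates 1, 2 and 4. Beta-cell markers were present throughout, with a mean level of 10.81 to 11.31 log2 CPM (log2 of CPM, the reads of a gene scaled to a common library size) in HFD libraries and 10.97 to 11.08 log2 CPM in RC libraries, and no measured marker of the 12 cell types looked at was at the floor of the table in every library. Every gene of the table was above 1 CPM in at least 4 of the 69 libraries, so the measured markers had already passed a filter on level. Only 3 of 12 lymphocyte markers and 2 of 8 adipocyte markers were measured. In bulk RNA, fewer cells of a type and less RNA per cell cannot be told apart.

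Features of single libraries touch the results below. HFD replicate 1 had the lowest weight of all 69 libraries when libraries were weighted by their distance from their group (0.212, against a highest weight of 4.458). It also differed in how transcript level depended on GC content: the GC-richest quintile of genes minus the GC-poorest quintile stood at -0.53 log2 units in HFD replicate 1, against 0.20, 0.33 and 0.43 in HFD replicates 2, 3 and 4. The same quantity was -0.28, -0.15 and -0.26 in RC replicates 1, 2 and 4. HFD replicate 1 thus lay beyond the RC libraries, and the other HFD libraries lay on the opposite side of 0. RC replicate 4 had the most macrophage RNA, with 13 macrophage markers summing to 321 CPM there, against 165 and 157 CPM in RC replicates 1 and 2 and 151 to 169 CPM in the HFD libraries. The part of GC content and of macrophage content in the gene results was not tested, and values without either library are given for many, but not all, of the named genes whose call they change.

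**Figure D1:**
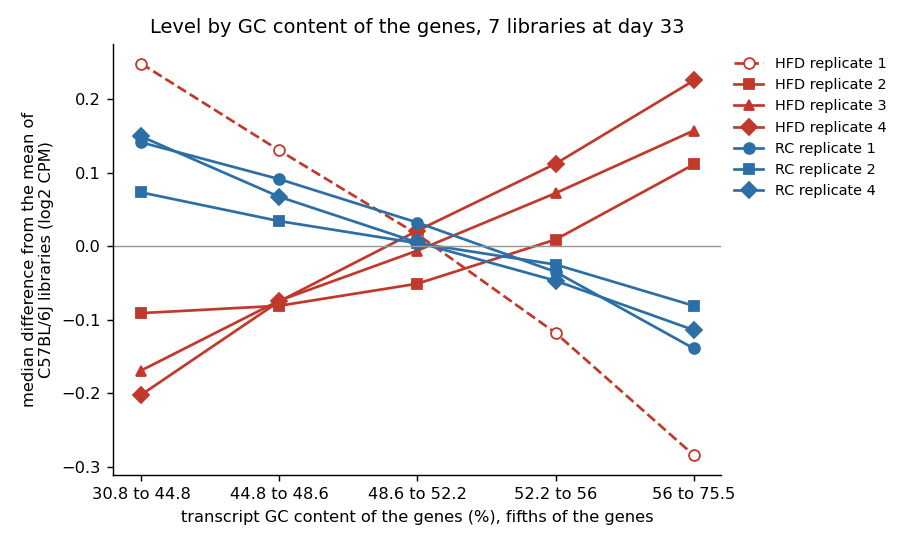
Median difference of genes from their mean over the C57BL/6J libraries, in log2 CPM, by quintile of transcript GC content for each of the 4 HFD and 3 RC libraries of C57BL/6J islets at day 33. HFD replicate 1 slopes down from 0.25 in the GC-poorest quintile to -0.28 in the GC-richest one, while HFD replicates 2 to 4 slope up and the RC libraries slope gently down.

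Across all genes, no gene passed an adjusted p of 0.05 between HFD and RC (limma with Benjamini-Hochberg adjustment, 0 of 14604 genes or 0.0%), and the lowest adjusted p was 0.0695. At an unadjusted p under 0.05 there were 2180 genes, of which 864 were higher (5.92% of genes) and 1316 lower (9.01%) in HFD islets. The 4 HFD and 3 RC values did not overlap for 416 genes that were higher (2.85%) and 859 genes that were lower (5.88%) in HFD islets. On the 7 libraries alone limma called 4 genes: Chac1, Nnat, Tcf24 and Mc5r. Without HFD replicate 1, limma called 541 genes higher (3.7%) and 593 lower (4.06%) in HFD islets. Their median GC content was 58.3% for the genes called higher and 42.8% for those called lower, against 50.4% over all genes. Once each library was centred on the median of 20 bins of genes by GC content, 2 genes were called, and with HFD replicate 1 also left out 1 gene was called, which was not among the 1134 called without centring. In what follows, levels are log2 CPM, a change is HFD minus RC on the log2 scale with its standard error, and a gene is said to have risen or fallen only with the test it passed.

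The widest separation between diets among stress genes was in Chac1, which encodes an enzyme that breaks down glutathione and is switched on by ATF4. Its level was 2.62, 3.02, 2.85 and 2.90 log2 CPM in HFD replicates 1 to 4, against 4.66, 4.73 and 4.65 log2 CPM in RC replicates 1, 2 and 4. All 4 HFD islet preparations lay well below all 3 RC preparations, and both groups were tight (2.85 ± 0.17, SD, n = 4, against 4.68 ± 0.04, SD, n = 3). Chac1 (ENSMUSG00000027313, chr2:119351229-119354381, GRCm38) was 3.57-fold lower in HFD islets, a change of -1.84 ± 0.45. It missed the threshold in limma over all libraries (adjusted p = 0.0772), and its change was -1.97 after GC centring. It fell by limma on the 7 libraries alone (adjusted p = 0.00148) and without HFD replicate 1 (adjusted p = 0.0251). The SD of Chac1 was wider in the other strains at day 33. It was 0.73 (HFD) and 0.36 (RC) in DBA/2J islets, and 0.49 (HFD) and 0.86 (RC) in BALB/cJ islets. The fit of the 7 libraries alone leaves out the spread of these other groups, which the fit over all libraries includes.

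Trib3, a pseudokinase and feedback inhibitor induced by ATF4 and CHOP, had 1.02, 1.04, 1.16 and 1.06 log2 CPM in HFD islets, against 2.29, 2.56 and 2.09 log2 CPM in RC islets. The groups did not overlap, and the change of -1.25 ± 0.40 did not pass limma (adjusted p = 0.161, and 0.0626 without HFD replicate 1). Cebpg, a partner of ATF4 in binding DNA, had 6.30, 6.14, 6.00 and 6.10 log2 CPM in HFD islets, against 6.69, 6.56 and 6.61 log2 CPM in RC islets. Its change of -0.49 ± 0.13 missed the threshold in limma over all libraries (adjusted p = 0.102) and passed it without HFD replicate 1 (adjusted p = 0.0201). Slc7a11, the cystine and glutamate exchanger, had -0.73, -0.86, -0.47 and -2.04 log2 CPM in HFD islets, against -0.04, -0.25 and 0.40 log2 CPM in RC islets. It was low in all 7 libraries, and its change of -1.06 ± 0.59 did not pass limma (adjusted p = 0.391). The mRNA of Atf4 itself had 7.74, 7.95, 8.11 and 8.15 log2 CPM in HFD islets, against 8.32, 8.16 and 8.23 log2 CPM in RC islets, with HFD replicate 4 just under the lowest RC library (limma adjusted p = 0.412).

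Of 29 genes listed for the integrated stress response, 27 were measured, and 5 of them (18.5%) were lower in every HFD library than in every RC library: Chac1, Trib3, Slc7a11, Cebpg and Atf4. The share over all genes was 5.88%. None of the 27 was higher without overlap. The median change of the list was -0.13, beside -0.01 over all genes, and it was -0.20 without RC replicate 4 and -0.22 after GC centring. In the fit of all libraries 20 members were negative and 7 positive. Ppp1r15a, which directs dephosphorylation of eIF2alpha, went the other way, with 5.20, 5.42, 5.66 and 5.59 log2 CPM in HFD islets, against 5.21, 5.11 and 5.29 log2 CPM in RC islets (limma adjusted p = 0.275). Slc38a2, an ATF4-responsive transporter of neutral amino acids outside that list, had 6.70, 6.71, 6.67 and 6.72 log2 CPM in HFD islets, against 7.28, 7.19 and 7.22 log2 CPM in RC islets. Both groups were tight and far apart, and Slc38a2 (chr15:96687392-96699730) had a change of -0.53 ± 0.12 (limma adjusted p = 0.075, and 0.0172 without HFD replicate 1).

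The promoters of the list are shown because the lower genes include targets of ATF4, whose heterodimers bind the amino acid response element. The letters TGATGCAA, searched on both strands of the 300 bases around RefSeq start sites, were found in 5 of the 23 list members with a promoter, against 79 of 11000 measured genes with a promoter (0.718%) and 294 of all 32851 promoters (0.895%). The 250 bases before the Chac1 start site, on the plus strand at chr2:119350992-119351241, are followed by shorter stretches around the element in the other 4 genes (RefSeq, GRCm38.p6, each on its gene's own strand, with the element in capitals).
Chac1: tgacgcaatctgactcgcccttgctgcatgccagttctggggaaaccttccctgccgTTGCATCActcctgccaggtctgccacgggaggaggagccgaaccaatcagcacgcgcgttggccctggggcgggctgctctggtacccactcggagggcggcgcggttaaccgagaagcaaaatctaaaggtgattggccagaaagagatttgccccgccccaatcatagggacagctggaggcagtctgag
Slc7a11 at chr3:50443633-50443699 (minus strand): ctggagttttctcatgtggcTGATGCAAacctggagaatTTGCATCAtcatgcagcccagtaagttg
Nupr1 at chr7:126625553-126625600 (minus strand): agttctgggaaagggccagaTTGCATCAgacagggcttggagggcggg
Atf3 at chr1:191183416-191183463 (minus strand): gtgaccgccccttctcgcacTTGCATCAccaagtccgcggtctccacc
Vldlr at chr19:27216800-27216847 (plus strand): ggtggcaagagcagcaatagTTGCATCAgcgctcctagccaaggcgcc
The element stands 193 bases before the start site of Chac1, and Slc7a11 holds 2 copies in opposite orientations. The 5 genes did not share one pattern. Nupr1, a stress-induced chromatin protein, had 4.41, 4.30, 4.33 and 5.16 log2 CPM in HFD islets, against 5.44, 4.97 and 4.98 log2 CPM in RC islets, so that only HFD replicate 4 overlapped RC. Atf3, a stress-induced repressor of the ATF family, had 0.22, -1.08, -0.68 and 1.40 log2 CPM in HFD islets, against -0.10, -0.85 and 1.21 log2 CPM in RC islets, and the groups overlapped fully. Vldlr, a lipoprotein receptor, had 6.73, 6.39, 6.20 and 6.56 log2 CPM in HFD islets, against 6.54, 6.56 and 6.54 log2 CPM in RC islets, also with overlap. The presence of the letters describes the sequence and does not show binding.

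**Figure D2:**
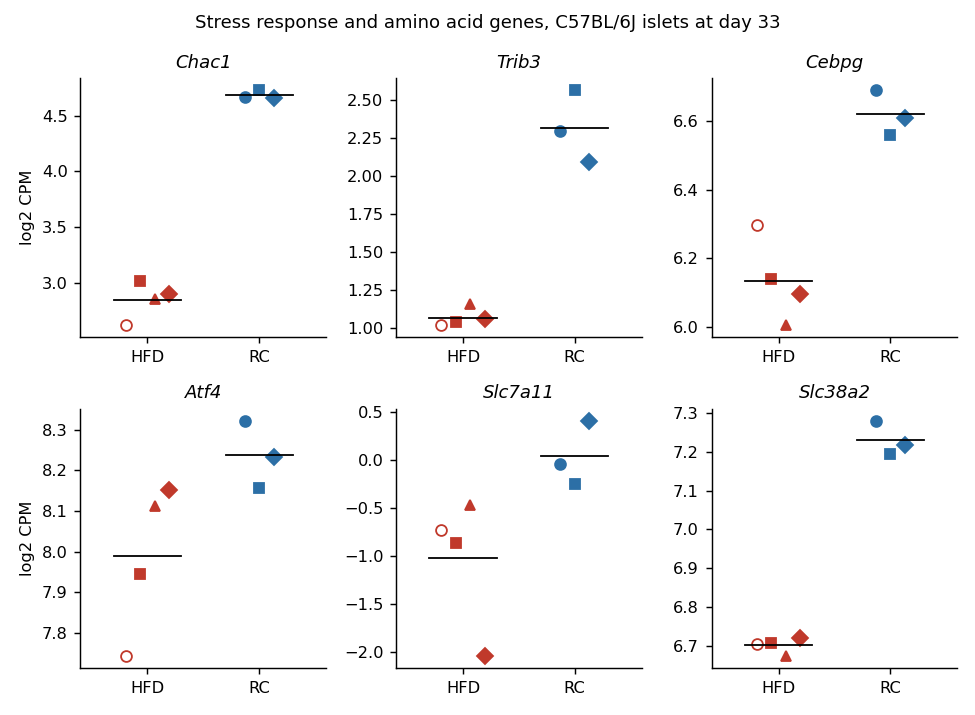
Level in log2 CPM of 5 integrated stress response genes and Slc38a2 in each HFD (left) and RC (right) library of C57BL/6J islets at day 33, with HFD replicate 1 drawn open and bars at the group means. Chac1 sits between 2.62 and 3.02 in the HFD libraries, below all 3 RC libraries.

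Other stress programmes did not show the separation seen in Chac1. Among 26 ER chaperones and disulfide isomerases, 1 was lower without overlap (3.85%, beside 5.88% of all genes) and none was higher. The median change was -0.04 (-0.07 without RC replicate 4). Hspa5, the main ER chaperone, had 11.02, 10.68, 10.96 and 10.59 log2 CPM in HFD islets, against 10.83, 10.64 and 10.87 log2 CPM in RC islets (limma adjusted p = 0.938). The same list had a median change of -0.33 at day 5 and -0.31 at day 13. Among 22 NRF2 and antioxidant genes, 1 was lower without overlap (4.55%, beside 5.88% of all genes). This was Slc7a11, already counted in the integrated stress response list. Hmox1, which degrades haem, had 2.10, 1.83, 2.19 and 2.80 log2 CPM in HFD islets, against 2.78, 2.67 and 3.39 log2 CPM in RC islets. Its change of -0.72 ± 0.20 did not pass limma over all libraries (adjusted p = 0.114). It passed without HFD replicate 1 (-0.67, adjusted p = 0.0425), and was -0.50 without RC replicate 4, the library with most macrophage RNA.

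Beyond these lists, the 12 lowest p in each direction were taken as the leading genes. Their adjusted p ran from 0.0695 to 0.108 in limma over all libraries, so all 24 missed the threshold there. All 24 passed without HFD replicate 1, 2 passed on the 7 libraries alone, and none passed after GC centring. The 12 higher genes had a median GC content of 56.8% and the 12 lower genes of 43.8%. Plxna3, a semaphorin receptor of the plexin family, had 4.98, 5.40, 5.21 and 5.14 log2 CPM in HFD islets, against 4.46, 4.59 and 4.73 log2 CPM in RC islets. Every HFD library was above every RC library, and Plxna3 (chrX:74329066-74344689) had a change of 0.59 ± 0.12 (limma adjusted p = 0.0695), which passed the threshold on the log2(CPM + 1) scale (adjusted p = 0.0306) and without RC replicate 4 (adjusted p = 0.0499).

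Nnat, an imprinted gene for a small ER membrane protein that in mouse beta cells aids insulin processing, had 5.57, 5.77, 5.95 and 5.83 log2 CPM in HFD islets, against 4.63, 4.71 and 4.65 log2 CPM in RC islets. The groups were clearly apart, and Nnat was 2.16-fold higher in HFD islets (change 1.11 ± 0.28). It had a limma adjusted p of 0.0884 over all libraries and rose by limma on the 7 libraries alone (adjusted p = 0.0106). Nnat (chr2:157560078-157562522) lies within Blcap on the opposite strand, and the strand setting of the counting was not given in the sources used here, so its reads and those of Blcap may not be separated. Gpsm1, a regulator of G protein signalling, had 6.17, 6.94, 6.59 and 6.70 log2 CPM in HFD islets, against 5.98, 5.91 and 6.01 log2 CPM in RC islets (limma adjusted p = 0.0772). Crtc1, a coactivator of CREB, had 5.83, 6.54, 6.36 and 6.50 log2 CPM in HFD islets, against 5.78, 5.93 and 5.83 log2 CPM in RC islets, with HFD replicate 1 inside the RC range. The other higher genes of this set were Hdac6, a cytoplasmic deacetylase, Cog1 of the Golgi tethering complex, Pmm2 of mannose metabolism, Mrps27 of the mitochondrial ribosome, Txndc11, Btbd17, Fbxw9 and Lin37, with changes from 0.24 to 0.78.

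Among the lower genes, Tcf24, a basic helix-loop-helix factor, had 5.08, 4.82, 5.28 and 4.75 log2 CPM in HFD islets, against 6.33, 6.05 and 6.39 log2 CPM in RC islets. The groups did not approach each other, and Tcf24 (chr1:9960163-9967932) fell by limma on the 7 libraries alone (adjusted p = 0.0304), with a change of -1.28 ± 0.30. Pxylp1, a phosphatase of proteoglycan synthesis, had 5.37, 5.39, 5.60 and 5.41 log2 CPM in HFD islets, against 6.20, 6.05 and 6.29 log2 CPM in RC islets, a change that stayed at -0.73 after GC centring. Tmem144 had 2.29, 2.13, 2.25 and 2.20 log2 CPM in HFD islets, against 2.88, 3.03 and 2.98 log2 CPM in RC islets. The others were Pgap1 of GPI anchor remodelling, the nucleotide synthesis genes Dck and Rrm1, the trafficking genes Sdcbp and Snx7, and Lin52, Lratd2 and Ccdc126.

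For the main islet hormones, differences between diets lay within the spread between libraries. Ins2 had 16.21, 16.76, 17.02 and 17.36 log2 CPM in HFD islets, against 16.72, 16.61 and 16.79 log2 CPM in RC islets, and Ins1 had 14.97, 15.35, 15.62 and 15.87 log2 CPM in HFD islets, against 15.50, 15.38 and 15.54 log2 CPM in RC islets. HFD libraries lay on both sides of the RC range for either gene (limma adjusted p = 0.815 for Ins2 and 0.97 for Ins1). Gcg, the glucagon gene, had 14.84, 14.55, 14.70 and 14.05 log2 CPM in HFD islets, against 15.00, 14.57 and 14.31 log2 CPM in RC islets. Pyy, made in PP and other islet cells, had 9.98, 10.25, 10.66 and 10.33 log2 CPM in HFD islets, against 9.09, 10.11 and 9.71 log2 CPM in RC islets. Only HFD replicate 1 lay inside the RC range of Pyy, and the change of 0.67 ± 0.23 had a limma adjusted p of 0.174, and of 0.04 without HFD replicate 1. Of 9 hormone genes, 1 was higher without overlap (11.1%, beside 2.85% of all genes), the ghrelin gene Ghrl, and none was lower. For Ghrl the lowest HFD and highest RC values were nearly tied, at 2.4074 against 2.4066 log2 CPM (limma adjusted p = 0.522).

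Beta-cell identity genes as a list stayed near 0, with a median change of 0.08 over 24 genes. Without overlap, 1 was higher (4.17%, beside 2.85% of all genes) and 1 lower (4.17%, beside 5.88% of all genes). Mafa, an activator of insulin transcription that marks mature beta cells, had 5.24, 6.90, 6.39 and 6.74 log2 CPM in HFD islets, against 5.54, 5.33 and 5.39 log2 CPM in RC islets. HFD replicate 1 was the lowest of all 7 libraries and the other 3 HFD libraries were the highest. Its change was 0.90 ± 0.28 (limma adjusted p = 0.154), and it rose by 1.26 without HFD replicate 1 (adjusted p = 0.0145). The Mafa transcript has 65.0% GC. After GC centring its change was 0.68 (limma adjusted p = 0.28), and with HFD replicate 1 also left out 0.89 (adjusted p = 0.169). Nkx2-2, a factor that keeps beta-cell identity, showed the same order, with 6.59, 7.37, 7.21 and 7.39 log2 CPM in HFD islets, against 6.72, 6.75 and 6.74 log2 CPM in RC islets (limma adjusted p = 0.216, and 0.0203 without HFD replicate 1). Pdx1 had 7.25, 7.69, 7.45 and 7.73 log2 CPM in HFD islets, against 7.50, 7.43 and 7.23 log2 CPM in RC islets. Esrrg, a nuclear receptor of beta-cell maturation, was lower in each HFD library, with 4.58, 4.43, 4.35 and 4.52 log2 CPM, against 5.09, 4.80 and 5.02 log2 CPM in RC islets (limma adjusted p = 0.172).

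Aldh1a3, a retinaldehyde dehydrogenase known as a marker of dedifferentiated beta cells, was lower in HFD islets. It had 2.08, 1.91, 1.96 and 1.67 log2 CPM in HFD islets, against 4.10, 3.10 and 2.97 log2 CPM in RC islets. All HFD values lay below all RC values, of which RC replicate 1 was the highest. Aldh1a3 (chr7:66390890-66427517) was 2.80-fold lower, with a change of -1.49 ± 0.35 that missed the threshold in limma (adjusted p = 0.0772) and passed it on the log2(CPM + 1) scale (adjusted p = 0.00452) and without HFD replicate 1 (adjusted p = 0.0183). After GC centring the change was -1.45.

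**Figure D3:**
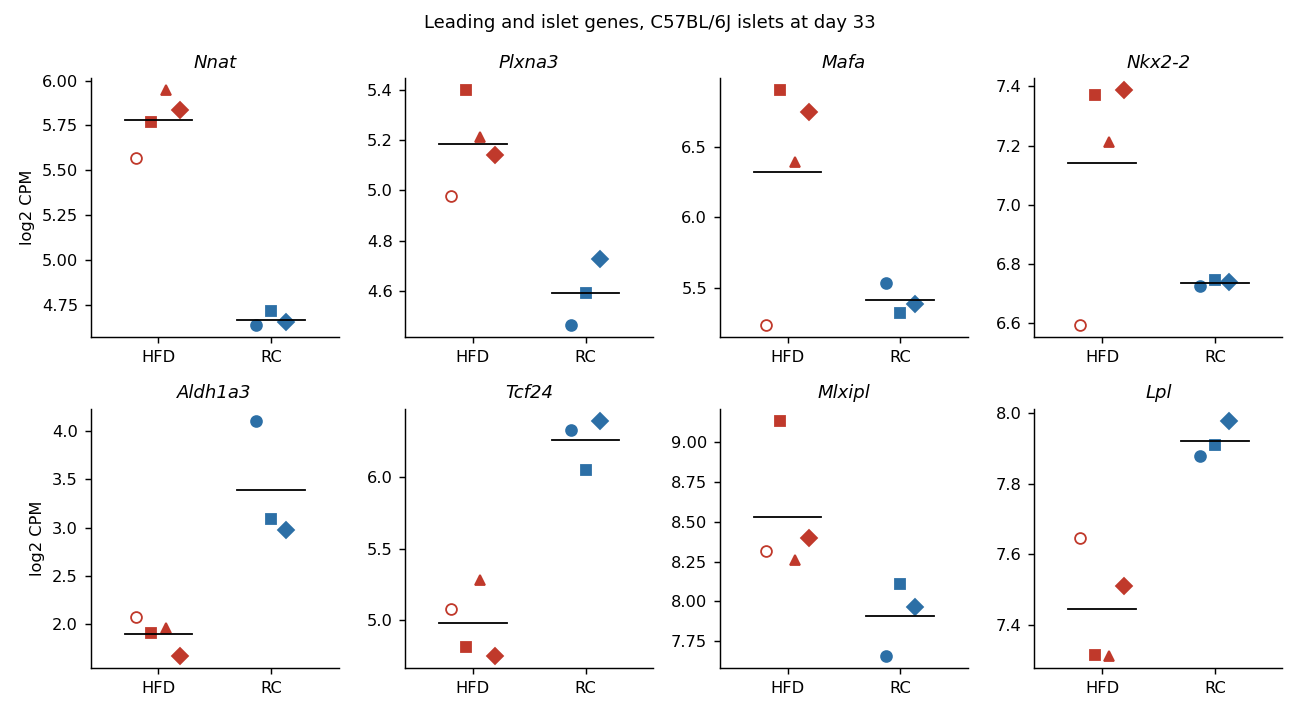
Level in log2 CPM of beta-cell and other islet genes in each HFD (left) and RC (right) library of C57BL/6J islets at day 33, with HFD replicate 1 drawn open and bars at the group means. Mafa in HFD replicate 1 lies at 5.24 while the other HFD libraries lie between 6.39 and 6.90, and Aldh1a3 lies between 1.67 and 2.08 in all HFD libraries.

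Among receptor and glucose-sensing genes none passed limma over all libraries. Of 21 genes for incretin and nutrient receptors and cAMP signalling, 3 were higher without overlap (14.3%, beside 2.85% of all genes), namely the GIP receptor Gipr, the adenylyl cyclase Adcy1 and the lipid receptor Gpr119, and none was lower. For Gipr and Gpr119 the lowest HFD and highest RC values were nearly tied, at 6.643 against 6.641 log2 CPM for Gipr and 4.735 against 4.732 log2 CPM for Gpr119. Gipr had 6.73, 7.50, 6.64 and 6.76 log2 CPM in HFD islets, against 6.21, 6.64 and 6.52 log2 CPM in RC islets, with HFD replicate 2 far above the rest (limma adjusted p = 0.28). The GLP-1 receptor gene Glp1r had 7.68, 7.85, 7.88 and 7.99 log2 CPM in HFD islets, against 7.74, 7.82 and 7.48 log2 CPM in RC islets. Ffar4, a receptor for long-chain fatty acids, had 2.51, 2.86, 3.13 and 3.16 log2 CPM in HFD islets, against 2.70, 2.29 and 2.51 log2 CPM in RC islets. It rose without HFD replicate 1 (limma adjusted p = 0.0327) but did not pass with all libraries (0.218). After GC centring its limma adjusted p was 0.456, and 0.307 with HFD replicate 1 also left out. Of 13 genes of glucose sensing and the KATP channel, 1 was lower without overlap (7.69%, beside 5.88% of all genes). This was G6pc2, which dephosphorylates glucose 6-phosphate, with 11.49, 11.28, 11.57 and 11.44 log2 CPM in HFD islets, against 11.98, 11.63 and 12.25 log2 CPM in RC islets. Its change did not pass limma (adjusted p = 0.265).

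Proliferation genes were mostly lower in HFD islets. Of 40 genes of DNA replication and mitosis, 38 had a negative change and 2 a positive one, 4 were lower without overlap (Mcm3, Mcm6, Aurkb and Rrm2), beside 5.88% of all genes, and 10 were lower at an unadjusted p under 0.05, beside 9.01% of all genes. No member passed limma over all libraries, and 2 did so without HFD replicate 1. The median change was -0.52, beside -0.01 over all genes, -0.62 without HFD replicate 1 and -0.51 after GC centring. The mean level over the list was 2.92, 1.93, 2.75 and 2.25 log2 CPM in HFD islets, against 3.21, 3.05 and 2.72 log2 CPM in RC islets, so the groups overlapped through RC replicate 4. Mki67, a marker of dividing cells, had 5.00, 3.06, 4.35 and 3.25 log2 CPM in HFD islets, against 5.27, 4.98 and 4.23 log2 CPM in RC islets. It varied among HFD libraries by nearly as much as the whole range (limma adjusted p = 0.341). Rrm2, the small subunit of ribonucleotide reductase, had 2.14, 1.46, 2.24 and 2.27 log2 CPM in HFD islets, against 2.80, 2.56 and 2.52 log2 CPM in RC islets. Which cells of the islet carried these transcripts was not measured.

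Lipid genes gave a mixed picture. Of 25 genes of cholesterol synthesis and uptake, 5 were lower without overlap (among them Cyp51, Insig1, Msmo1 and Stard4), beside 5.88% of all genes, and 1 was higher (Lss), beside 2.85%. Of their changes 13 were positive and 12 negative, and the median was 0.02 (0.08 without HFD replicate 1 and -0.04 without RC replicate 4). The size of these differences was small: Insig1, a brake on sterol synthesis, had 7.17, 6.99, 7.04 and 7.24 log2 CPM in HFD islets, against 7.45, 7.41 and 7.29 log2 CPM in RC islets. Mlxipl, the glucose-responsive factor ChREBP, had 8.32, 9.13, 8.26 and 8.40 log2 CPM in HFD islets, against 7.65, 8.11 and 7.96 log2 CPM in RC islets. All HFD libraries lay above the RC libraries, with HFD replicate 2 the highest, and the change of 0.62 ± 0.19 had a limma adjusted p of 0.15, and of 0.0337 without HFD replicate 1. Lpl, the lipase that frees fatty acids from lipoproteins, had 7.65, 7.31, 7.31 and 7.51 log2 CPM in HFD islets, against 7.88, 7.91 and 7.98 log2 CPM in RC islets (limma adjusted p = 0.15, and 0.0285 without HFD replicate 1). Of 31 genes of fatty acid oxidation, 2 were higher without overlap (6.45%, beside 2.85% of all genes) and none was lower (5.88% of all genes). Cpt1a, which admits fatty acids to mitochondria, had 6.20, 6.26, 6.40 and 6.56 log2 CPM in HFD islets, against 6.46, 6.22 and 6.21 log2 CPM in RC islets. Pdk4, which restrains glucose oxidation, had 4.75, 4.33, 4.95 and 4.30 log2 CPM in HFD islets, against 5.37, 4.58 and 4.50 log2 CPM in RC islets.

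Genes of islet growth in pregnancy and of immune origin were examined next. Of 11 serotonin and pregnancy-type genes, 2 were lower without overlap (18.2%, beside 5.88% of all genes). They were the matrix gene Matn2 and Tnfrsf11b, which encodes the decoy receptor osteoprotegerin. Tnfrsf11b had 3.84, 3.59, 3.61 and 3.51 log2 CPM in HFD islets, against 4.38, 4.33 and 4.62 log2 CPM in RC islets, and fell without HFD replicate 1 (limma adjusted p = 0.0325). Prlr, the prolactin receptor, had 9.09, 8.56, 8.61 and 8.57 log2 CPM in HFD islets, against 9.36, 8.97 and 9.20 log2 CPM in RC islets, with HFD replicate 1 inside the RC range. Of 34 antigen presentation and interferon-induced genes, 2 were higher without overlap (5.88% of the list, beside 2.85% of all genes) and none was lower. The immunoproteasome subunit Psmb9 had 2.47, 3.09, 2.62 and 3.27 log2 CPM in HFD islets, against 2.44, 2.35 and 2.26 log2 CPM in RC islets (limma adjusted p = 0.203, and 0.0351 without HFD replicate 1).

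Markers of stromal cells and macrophages were mostly lower in HFD islets, and RC replicate 4 stood apart in them. Fn1, fibronectin, had 1.35, 0.53, 0.96 and 0.86 log2 CPM in HFD islets, against 1.01, 1.26 and 6.93 log2 CPM in RC islets, and its change of -2.14 was -0.21 without RC replicate 4. Lyz2, a macrophage lysozyme, had 3.99, 3.24, 3.84 and 3.52 log2 CPM in HFD islets, against 4.53, 3.86 and 6.95 log2 CPM in RC islets, and its change of -1.47 was -0.55 without that library. Igf1, a growth factor made by stromal cells and macrophages, had 0.11, 0.07, -0.57 and -0.75 log2 CPM in HFD islets, against 0.22, 0.87 and 2.36 log2 CPM in RC islets. Its change was -1.435 with all libraries (limma adjusted p = 0.145) and -0.83 without RC replicate 4. It passed limma without HFD replicate 1 (change -1.57, adjusted p = 0.0324). Of 19 stellate cell, fibroblast and pericyte markers, 16 had a negative change with none free of overlap, and the median was -0.33 with all libraries, -0.36 without RC replicate 4 and -0.50 without HFD replicate 1. Of 13 macrophage markers, the median was -0.22 with all libraries, 0.01 without RC replicate 4 and -0.35 after GC centring. Among ductal markers, Spp1, osteopontin, had 4.64, 3.78, 4.50 and 4.32 log2 CPM in HFD islets, against 5.37, 5.24 and 5.20 log2 CPM in RC islets, and Krt18, a keratin of simple epithelia, had 6.59, 6.89, 7.04 and 6.79 log2 CPM in HFD islets, against 6.46, 6.27 and 6.45 log2 CPM in RC islets. These 2 markers lay on opposite sides, and both passed limma without HFD replicate 1 (adjusted p = 0.0335 for Spp1 and 0.0251 for Krt18). Of the measured ductal markers, 8 had a positive change and 2 a negative one, with a median of 0.20. Only Krt18 was higher without overlap, beside 2.85% of all genes, and only Spp1 was lower, beside 5.88%. Spp1 thus went against most of its list.

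**Figure D4:**
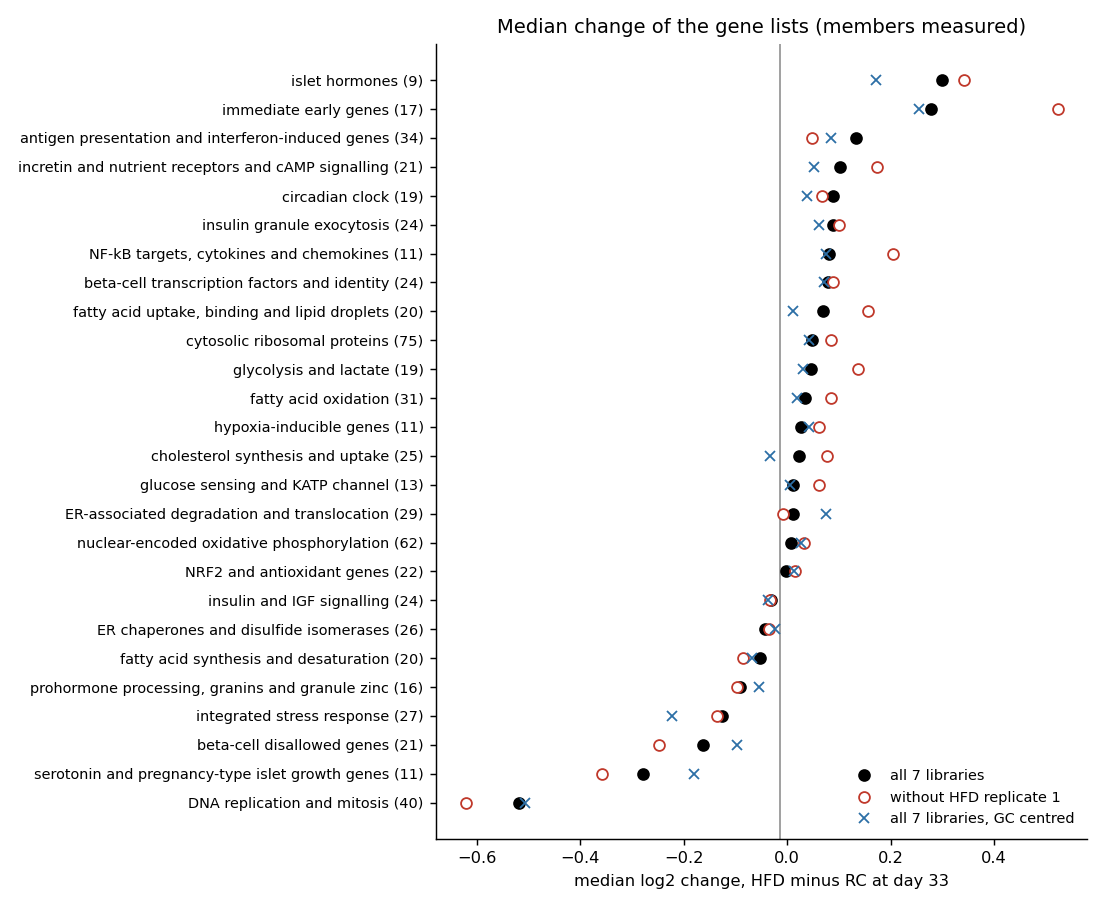
Median log2 change HFD minus RC at day 33 for pathway lists in C57BL/6J islets, with all 7 libraries (filled), without HFD replicate 1 (open) and after GC centring (crosses), with the median of all genes as a vertical line. The replication list lies at -0.52 with all libraries and -0.62 without HFD replicate 1, and the integrated stress response list at -0.13 and -0.14.

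The day-33 effect was set against the effect of the same diet in C57BL/6J islets at earlier days, each with 4 HFD and 4 RC libraries. Limma called 1.87% of genes between diets at day 5 and 1.04% at day 13. The difference of the effects, day 33 minus day 5, was called for 3 genes (0.0205%), all lower at day 33, and day 33 minus day 13 for none (0.0%, 1139 genes at an unadjusted p under 0.05). Per1, a repressor of the circadian clock, had 6.48, 6.24, 6.69 and 7.20 log2 CPM in HFD islets at day 5, against 5.05, 5.15, 4.92 and 4.81 log2 CPM in RC islets. At day 33 it had 5.41, 6.25, 5.63 and 5.49 log2 CPM in HFD islets, against 5.56, 5.51 and 5.71 log2 CPM in RC islets. The diets were thus apart at day 5 (change 1.67 ± 0.21, limma adjusted p = 1.07e-06) and overlapped at day 33 (0.10 ± 0.23), and the effects differed by -1.57 ± 0.31 (adjusted p = 0.0304).

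Trib1, a pseudokinase of the same family as Trib3, rose by 1.13 at day 5 (limma adjusted p = 2.63e-07) and stood at 5.35, 5.33, 5.87 and 5.67 log2 CPM in HFD islets at day 33, against 5.56, 5.33 and 5.53 log2 CPM in RC islets. The effects differed by -1.05 ± 0.20 (adjusted p = 0.0246). Pole, the catalytic subunit of DNA polymerase epsilon, had 0.81, 1.80, 1.17 and 1.66 log2 CPM in HFD islets at day 5, against -0.42, 0.34, 0.41 and 0.19 log2 CPM in RC islets, and 0.55, -0.22, 0.38 and 0.51 log2 CPM in HFD islets at day 33, against 1.57, 2.13 and 0.85 log2 CPM in RC islets. It was higher on HFD at day 5 and lower on HFD at day 33, a difference of -2.44 ± 0.47 (adjusted p = 0.0246). Pole is a low-level gene and was named after its value had been seen. No call of the 3 genes held in every fit that left out 1 library: without HFD replicate 1 the adjusted p was 0.0659 for Per1, 0.0509 for Trib1 and 0.0201 for Pole, and without RC replicate 1 it was 0.103 for each. Without RC replicate 4 it was 0.108 for Per1 and 0.0728 for Trib1. The day 33 change of Pole itself passed limma without HFD replicate 1 (adjusted p = 0.0299). The list medians by day were 0.22, -0.47 and -0.52 for replication genes and -0.48, -0.04 and -0.13 for integrated stress response genes at days 5, 13 and 33. The change of Chac1 was -0.57, 0.41 and -1.84 on these days, and the day 33 effect was not shown to differ from that at day 5 (limma adjusted p = 0.522).

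**Figure D5:**
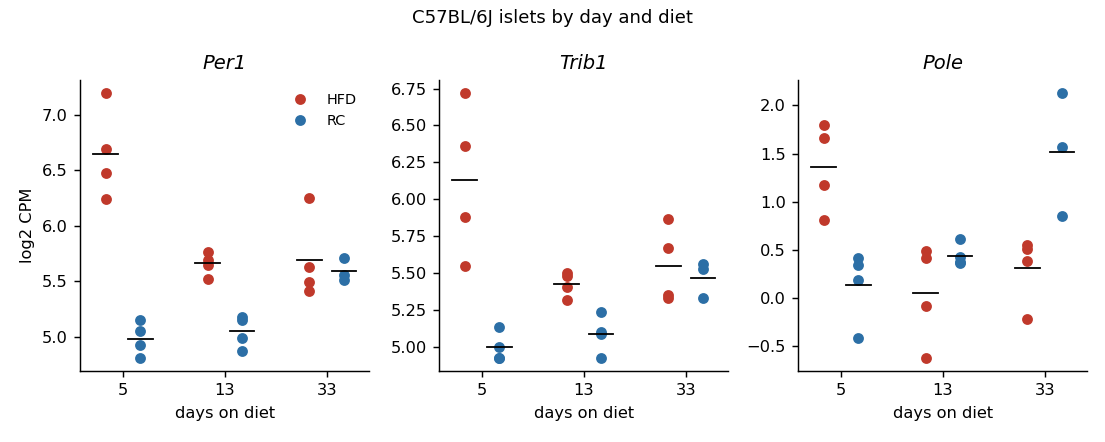
Log2 CPM of Per1, Trib1 and Pole in HFD (left) and RC (right) islets of C57BL/6J mice by day on diet, 1 point per library and bars at the group means. Per1 in HFD islets lies between 6.24 and 7.20 at day 5, above all RC libraries, and overlaps RC at day 33.

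At day 33 the diet effect was also compared between strains. The difference between C57BL/6J and DBA/2J effects was called by limma for 0 genes (0.0%, 2531 at an unadjusted p under 0.05), and that between C57BL/6J and BALB/cJ effects for 0 genes (0.0%, 2012 at an unadjusted p under 0.05). Without HFD replicate 1 these counts were 945 and 403 of 14604 genes, and with GC centring as well they were 0 and 1. The change of Chac1 was -1.84 in C57BL/6J, -1.03 in DBA/2J and -0.92 in BALB/cJ islets, and these effects were not shown to differ (limma adjusted p = 0.51 and 0.49). The change of Mafa was 0.90 in C57BL/6J, -0.49 in DBA/2J and 0.32 in BALB/cJ islets (limma adjusted p = 0.133 for C57BL/6J minus DBA/2J, and 0.018 without HFD replicate 1). Replication genes had a median change of -0.52, -0.46 and -0.08 in the 3 strains, and integrated stress response genes of -0.13, -0.14 and -0.17.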

How the data were processed

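Islet RNA was measured as stranded, poly(A)-selected libraries (TruSeq) sequenced as single-end reads, per the labels' protocols. The authors deposited log2 CPM values, scaled between libraries. The submitters' processing notes name the aligner STAR 2.5.3a, HTSeq 0.9.1, edgeR (version not given) and GRCm38, with no settings. The floor of the table is -3.54 log2 CPM (0.0862 CPM). Whole reads could be recovered for 100% of values within 0.05 reads, which gave the depth of each library. Of 72 samples, 3 have no column and were not analysed here, 1 of them a C57BL/6J RC mouse at day 33. Day 33 is taken from the sample labels, although the series text lists 13 in its place, and the strain label C56BL/6J was read as C57BL/6J. GENCODE mouse release M21 (GRCm38) matched 14589 gene identifiers and gave coordinates and GC content.

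Limma 3.58.1 in R 4.3.3 was used on the log2 values of all 69 libraries, with a separate mean for each strain, diet and day (eBayes with trend, two-sided, Benjamini-Hochberg adjustment over 14604 genes, threshold 0.05). Alternatives were fits of fewer libraries, library weights, quantile or median scaling, a filter of mean log2 CPM above 2, log2(CPM + 1), a replicate block and leaving out each library. GC centring in 20 bins, and its combinations, was chosen after seeing the data. Replicates differed by more than counting error (chi-square per degree of freedom 10.23 to 125.41). Among protein-coding genes outside the lowest 25% by level, the named genes are the 12 lowest p in each direction (none passed the threshold), the lowest p within each list (4 at most), fixed genes, and the 4 lowest p of each difference of effects; others were named after their values were seen. The 40 gene lists and the comparison were chosen with earlier results of these data known. Values after ± are SD for groups and SE for changes. The fit was tested on simulated data.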

Additional observations from a re-analysis of the deposited data

Results flagged for a closer look

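In 15 of 216 genes examined, 1 of the 4 HFD libraries lay apart from the other 3 by Dixon's criterion, which chance meets in about 1 of 20 groups. HFD replicate 1 stood apart in 7 genes. It was the highest for Elovl7 at 3.23 log2 CPM (others 2.66 to 2.73), Gclm at 6.44 (6.11 to 6.16), Prlr at 9.09 (8.56 to 8.61) and the mitochondrially encoded mt-Nd1 at 12.03 (11.45 to 11.54), mt-Nd4 at 11.40 (10.90 to 10.93) and mt-Co1 at 13.52 (12.99 to 13.01), and the lowest for Keap1 at 5.82 (6.37 to 6.42).

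HFD replicate 2 also stood apart in 7 genes. It was the highest for Gipr at 7.50 log2 CPM (others 6.64 to 6.76), Adcy1 at 2.65 (2.10 to 2.18), Mlxipl at 9.13 (8.26 to 8.40) and Fosl2 at 5.29 (3.52 to 3.73), and the lowest for Pam at 9.35 (9.63 to 9.67), Rrm2 at 1.46 (2.14 to 2.27) and Mcm6 at 3.62 (4.01 to 4.08). HFD replicate 4 stood apart in 1 gene, Nupr1, at 5.16 log2 CPM (others 4.30 to 4.41).

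The diet effect differed between day 33 and day 5 by a test of the difference for 3 genes: -2.44 log2 units for Pole, -1.57 for Per1 and -1.05 for Trib1 (limma adjusted p = 0.0246, 0.0304 and 0.0246). At day 5 the diets shared no title number, so what those numbers mark cannot be told apart from diet there.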

How the results depend on the processing

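Over 19 alternatives, 122 named genes kept their direction and side of the threshold in 2131 values, passed it only under the alternative in 151, lost it in 14 and changed sign in 57. The planned count models (edgeR, DESeq2 and limma-voom) were also fitted to recovered reads, and their calls, more numerous between diets than those of limma on the log2 values, are left out because the deposited unit is log2 and not counts. The number of genes called between HFD and RC at day 33 was 0 with all libraries. It was 4 on the 7 libraries alone, 3 on log2(CPM + 1) (Aldh1a3, Plxna3 and Eps8l1) and 3824 with library weights. It was 0 to 1134 when 1 library was left out, the highest without HFD replicate 1 and at most 4 otherwise. GC centring called 2 (A930015D03Rik and Impact), and 1 each without HFD replicate 1 and without RC replicate 4. For day 33 minus day 5, 3 genes became 889 with library weights and 0 to 3 with 1 library left out. Of these calls, Per1 was lost in 6 of 7 such fits, and Trib1 also among C57BL/6J libraries only (adjusted p = 0.263). For day 33 minus day 13, the 0 became 2976 with library weights, 0 with any library left out and 1 under each GC centring. For C57BL/6J minus DBA/2J, the 0 became 4998 with weights, 0 to 945 with 1 library left out, and 1 under GC centring without RC replicate 4. For C57BL/6J minus BALB/cJ, it became 3285 with weights, 0 to 403 with 1 library left out, 1 under GC centring, 1 without HFD replicate 1 as well, and 2 without RC replicate 4 instead. The causes were not tested.

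Replicates were numbered in sample order, and same-numbered HFD and RC libraries of this comparison share a number in their titles. Some of these title numbers recur in the other strains, and their meaning is not given. Deviations of same-numbered libraries correlated at 0.019, 0.142 and 0.22 for replicates 1, 2 and 4. HFD replicates 2 and 4 correlated best with their own number, and HFD replicate 1 with RC replicate 2 (0.102). So few correlations cannot decide whether the numbers mark pairs, and the main fit took no pairs. With a replicate block 0 genes were called, as without it, and also with GC centring. The block drops HFD replicate 3, which has no partner. Changes of sign under the block were Atf3 at 0.09, Vldlr at 0.014, Trib1 at -0.022 and Hspa5 at -0.015, and under the block with GC centring Atf3 at 0.101, Vldlr at 0.048, Per1 at -0.022, Trib1 at -0.059, Keap1 at -0.005, mt-Nd4 at 0.031, mt-Co1 at 0.079, Ins2 at -0.033 and Slc2a2 at 0.032. Under GC centring they were Per1 at -0.076, mt-Nd4 at 0.048, mt-Co1 at 0.088, Ins1 at 0.044, Iapp at 0.029, Gcg at 0.046 and Slc2a2 at 0.077. With HFD replicate 1 also left out they were Per1 at -0.099, mt-Nd4 at 0.056, mt-Co1 at 0.086, Ins1 at 0.236, Iapp at 0.126, Gcg at 0.024 and Slc2a2 at 0.121. With RC replicate 4 left out instead they were Atf3 at 0.449, Pdx1 at -0.013, Per1 at -0.012, Ccl6 at 0.07, mt-Co1 at 0.042, Ins1 at 0.075, Iapp at 0.051 and Slc2a2 at 0.096. Quantile normalization put mt-Co1 at 0.131 and Ins2 and Scg2 at 0. Library weights put Ins1 at 0.116. With 1 library left out, the change ranged from -0.604 to 0.436 for Atf3, -0.162 to 0.014 for Vldlr, -0.083 to 0.198 for Per1, -0.022 to 0.157 for Trib1, -0.066 to 0.523 for Fosl2, -0.16 to 0.142 for Ins1, -0.044 to 0.341 for Ins2, -0.246 to 0.098 for Gcg, -0.037 to 0.107 for Hspa5, -0.393 to 0.041 for Pdk4 and -0.011 to 0.141 for Cpt1a. Depth of 20349943 reads or more per library limits low genes such as Slc7a11 and Pole most.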
